A study of Rattus norvegicus with 12 samples.

Results

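The comparison described here is that of the TDP-43 + EA + Eda group with the TDP-43 + EA group, 3 libraries against 3 of a series of 12, taken by the group labels of the libraries and read over all 13230 genes that passed a filter on low counts, of 32883 in the deposited table. It asks what edaravone changed in the transcripts of cells that carried a TDP-43 adenovirus and were exposed to ethacrynic acid. The cells were 1464R, an immortalised adult rat neural stem cell line, differentiated for 4 days in medium with serum and retinoic acid. At the change to a serum-free and antioxidant-free medium, both groups received the adenovirus, and 24 h later both received 20 µmol/L ethacrynic acid for another 24 h. The TDP-43 + EA + Eda group also had 50 µmol/L edaravone for the whole 48 h, so edaravone preceded ethacrynic acid by 24 h, and the other group had the DMSO vehicle. The Control group (3 libraries) had neither virus nor drug and the Eda group (3 libraries) had 50 µmol/L edaravone alone for 48 h. The labels name a virus for the C-terminal fragment of TDP-43, whereas the methods of the study name DsRed-tagged viruses for wild-type human TDP-43 and for the C-terminal fragment, driven from a vector whose promoter is not given in the sources used here. The labels do not say whether libraries of a group were grown apart. The study gives its sequenced samples as drawn from separate experiments and says that all were pooled for sequencing. It does not say which library belongs to which experiment. The p-values weigh the spread of these libraries.

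Edaravone is a free radical scavenger used in amyotrophic lateral sclerosis, and ethacrynic acid is a diuretic that consumes glutathione. A lack of glutathione frees the transcription factor Nrf2 from its inhibitor Keap1, and Nrf2, paired with a small Maf protein, then switches on genes for glutathione and thioredoxin recycling, heme breakdown and iron storage. Damaged proteins call on other branches of the stress response, namely the heat shock factor with the cytosolic chaperones, the ATF4, CHOP and C/EBP factors with amino acid supply, and autophagy with its receptor p62.

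In units of 1e6 counts, the 6 libraries held 17.42 to 43.91. Replicate 1 of TDP-43 + EA + Eda was the deepest at 43.91, whereas replicates 2 and 3 held 17.42 and 19.66 and the TDP-43 + EA libraries 18.98 to 21.48. The 10 most abundant genes took 11.8 to 13.68% of counts in the TDP-43 + EA + Eda libraries and 8.82 to 9.45% in the TDP-43 + EA libraries, and the trimmed mean (TMM) factors that correct for such differences were 0.829 to 0.860 and 1.025 to 1.036. Tardbp, the rat gene to which reads of the human TDP-43 cDNA can be assigned, was counted at means of 39.1 and 36.6 normalised counts per 1e6 counts (CPM) in Control and Eda. In single libraries it was 1796, 1245 and 1087 CPM without and 3672, 2045 and 2000 CPM with edaravone among the infected cells, a log2 difference of 0.90 (SE 0.21, adjusted p = 0.0044). Every infected library was thus far above the uninfected ones, in the direction of its label, and the groups with and without edaravone did not overlap. How much of this count is transgene, and its part in the results that follow, was not tested.

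With edaravone, 251 genes were higher and 523 lower with an adjusted p (Benjamini-Hochberg, edgeR's quasi-likelihood test) no larger than 0.05 and a log2 fold change of 1 or more in either direction, the definition of a differentially expressed gene (DEG) used here. These 774 DEGs are 5.85% of the genes tested, the higher ones 1.9% and the lower ones 3.95%. At the same adjusted p with any fold, 2038 genes rose (15.4%) and 1989 fell (15.0%), and the words rose and fell are used in this sense throughout. Groups that did not overlap were seen for 2577 genes in the direction higher with edaravone (19.5%) and 2692 genes in the direction lower (20.3%). The lower DEGs were on the whole genes of low level, with a median of 6.44 CPM in TDP-43 + EA against 25.7 CPM for the higher DEGs and 22.4 CPM for all genes tested, and 5.54% of them exceeded 50 CPM against 38.6% of the higher DEGs. Their annotated span was also shorter, with a median of 11.8 kb against 19.8 kb for the higher DEGs and 20.0 kb for all genes. Without the deep replicate 1 of TDP-43 + EA + Eda there were 172 higher and 435 lower DEGs, and with that library thinned to the depth of replicate 3 there were 242 and 509.

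The balance of the 2 directions moved with the scaling of the libraries. Scaled to library totals alone, the median of all genes moved from -0.02 to -0.30 on the log2 scale, with 80 DEGs higher and 1077 lower (6.91% higher, against 32.43% with TMM factors), and on log2(TPM + 1) the median was -0.21 with 66 higher and 518 lower (11.3% higher). Upper quartile factors moved it to -0.10, with 183 higher and 647 lower (22.05% higher). Relative to the median of all genes, the medians of 36 of the 37 gene lists used here stayed on the same side under all 6 scalings. The exception was the neural stem cell markers, which lay within 0.02 of it in each. Factors per library shift all genes by nearly the same amount. Except on log2(TPM + 1), this outcome was therefore largely fixed in advance and is no test of the lists. For most lists, counts under library totals are given below beside those with TMM factors. Of all 13230 genes tested, 816 rose and 4520 fell under library totals. With TMM factors 15.4% rose and 15.0% fell. List counts near these shares do not set a list apart from all genes. List counts of 1 or 2 are fragile, since leaving out single libraries moved many of them by 1 or 2 genes.

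**Figure D1:**
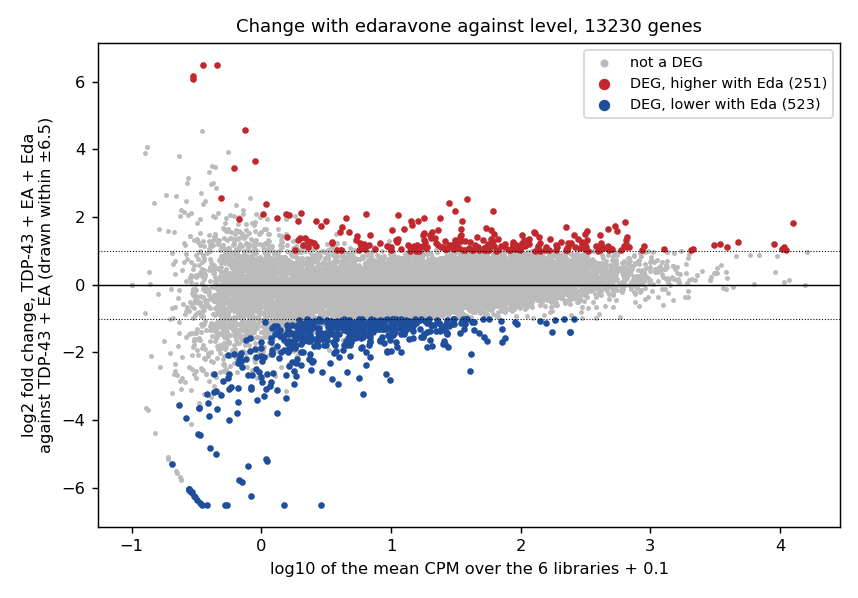
Log2 fold change of the edaravone-treated over the untreated TDP-43 + EA cells (vertical axis, values beyond 6.5 drawn at the edge) against the log10 of the mean CPM over the 6 libraries plus 0.1 (horizontal axis), 1 point per gene tested; dotted lines mark a log2 fold change of 1 in either direction. The 251 higher DEGs (red) reach to the most abundant genes at the right, whereas the 523 lower DEGs (blue) thin out above 50 CPM, which 5.54% of them exceeded in TDP-43 + EA.

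Cebpb, Sqstm1 and Alg6 are described first, as genes known from earlier results to differ here. Cebpb (Rnor_6.0, chromosome 3, 164424515 to 164425910, plus strand) encodes a C/EBP transcription factor that pairs with ATF4 and CHOP. It was counted at 247, 270 and 225 CPM in TDP-43 + EA, at 988, 661 and 814 CPM once edaravone was added, and at means of 31.8 and 36.2 CPM in Control and Eda. Every library with edaravone thus exceeded every library without it, by 3.32-fold in the fit (log2 1.73, SE 0.12, adjusted p = 1.62e-06). Sqstm1 (chromosome 10, 35704730 to 35716294, minus strand) encodes p62, which carries ubiquitinated cargo to the autophagosome and displaces Nrf2 from Keap1. It was at 2825, 2925 and 2571 CPM without and at 6055, 6544 and 7249 CPM with edaravone, over means of 1073 and 1113 CPM in Control and Eda (log2 1.25, SE 0.09, adjusted p = 1.62e-06). Alg6 (chromosome 5, 118418799 to 118469376, plus strand) encodes the glucosyltransferase that adds the first glucose to the lipid-linked precursor of N-glycans. It stood at 78.6, 72.7 and 83.3 CPM without edaravone, beside means of 82.7 and 84.4 CPM in Control and Eda, and at 26.4, 27.6 and 26 CPM with it. Its level in TDP-43 + EA + Eda was 2.93-fold lower than in TDP-43 + EA (log2 -1.55, SE 0.09, adjusted p = 4.62e-07), and the levels of the 3 other groups lay between 72.7 and 88.3 CPM in every library.

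**Figure D2:**
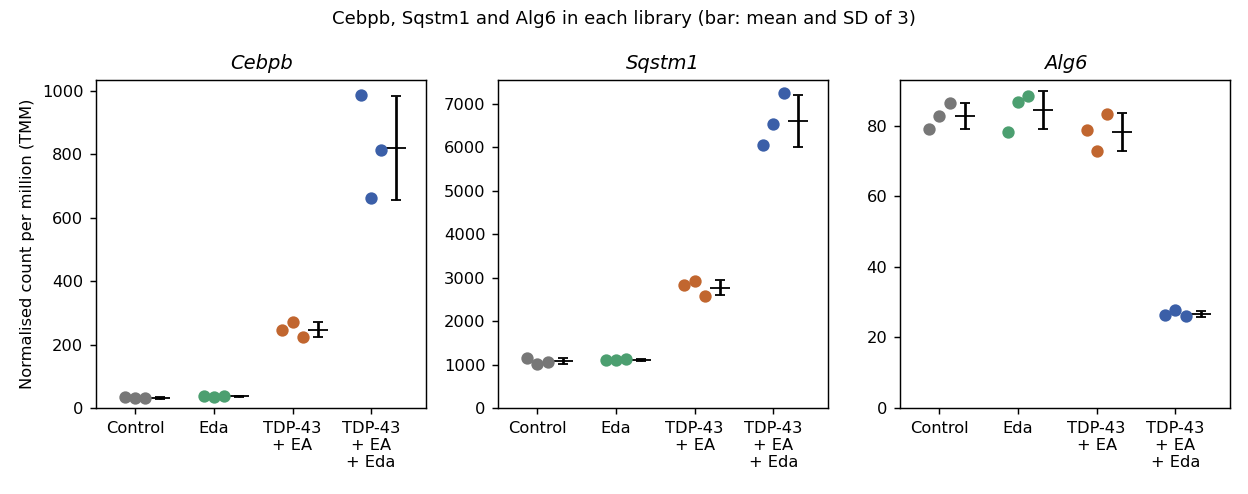
Normalised level in CPM (vertical axis, linear from 0) of Cebpb, Sqstm1 and Alg6 in each of the 12 libraries, 3 points per group, with the mean and SD of the 3 libraries as a bar at the right of each group. Cebpb and Sqstm1 step up from Control and Eda (means of 31.8 and 36.2, and of 1073 and 1113 CPM) to TDP-43 + EA and again with edaravone, whereas Alg6 is low in TDP-43 + EA + Eda alone (26 to 27.6 CPM).

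Among the 12 higher DEGs of smallest adjusted p, the levels of most had a step from Control to TDP-43 + EA and a second one with edaravone. Gadd45b, a stress-induced regulator of MAP kinase signalling and DNA demethylation, had means of 130 CPM in Control and 132 CPM in Eda, lay at 215, 227 and 238 CPM in TDP-43 + EA and rose to 710, 669 and 739 CPM (log2 1.64, SE 0.11, adjusted p = 1.62e-06). Uap1, which makes the UDP-N-acetylglucosamine used in N- and O-glycosylation, rose from 126, 163 and 123 CPM to 418, 345 and 374 CPM (log2 1.47, SE 0.11, adjusted p = 1.62e-06). Slc38a2, a carrier of neutral amino acids and a target of ATF4, rose from 392, 420 and 404 CPM to 939, 818 and 889 CPM (log2 1.12, SE 0.09, adjusted p = 3.97e-06). Gpsm1, an activator of G protein signalling, Fbxo30, an F-box protein, Pip4p2, a phosphoinositide phosphatase of late endosomes and lysosomes, Ypel5 and Pik3cb, a catalytic subunit of phosphoinositide 3-kinase, rose by log2 1.10 to 1.19. Arntl, which encodes the clock factor BMAL1, had another course. It was at means of 21.8 CPM in Control and 23.0 CPM in Eda, at 16.8, 19.5 and 19.1 CPM in TDP-43 + EA and at 53.7, 48.1 and 45.5 CPM with edaravone (log2 1.41, SE 0.12, adjusted p = 4.94e-06), so only the last group stood apart.

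The 12 lower DEGs of smallest adjusted p had means in TDP-43 + EA below those of Control, apart from Tmem14a and P2ry1, and fell with edaravone. Wdr6, whose product binds a tRNA methyltransferase, was at means of 561 CPM in Control and 570 CPM in Eda, at 375, 307 and 362 CPM in TDP-43 + EA and at 127, 141 and 132 CPM with edaravone (log2 -1.39, SE 0.09, adjusted p = 1.19e-06). Wfs1, which encodes the endoplasmic reticulum membrane protein wolframin, fell from 19.8, 20.1 and 16.7 CPM to 5.66, 4.87 and 3.62 CPM (log2 -1.98, SE 0.17, adjusted p = 4.94e-06). Tmem14a, a small membrane protein gene, fell from 40.3, 44.6 and 42.8 CPM to 10.3, 13.4 and 12.6 CPM (log2 -1.83, SE 0.14, adjusted p = 2.02e-06). None of these libraries overlapped between the groups. Cell surface receptors were among them: P2ry1, a receptor for ADP, was at 64.6, 53.8 and 67.7 CPM without and at 22.7, 24.6 and 25.9 CPM with edaravone, and Ednrb, the endothelin B receptor, at 135, 118 and 117 CPM and at 60.5, 58.9 and 54.5 CPM. Blm, a RecQ DNA helicase, Abcd2, a peroxisomal fatty acid transporter, Rnf26, a ubiquitin ligase of the endoplasmic reticulum, Pdcl, a chaperone partner of G protein subunits, and the genes labelled LOC100910528 and AABR07053687.1 fell by log2 values between -1.02 and -1.56.

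**Figure D3:**
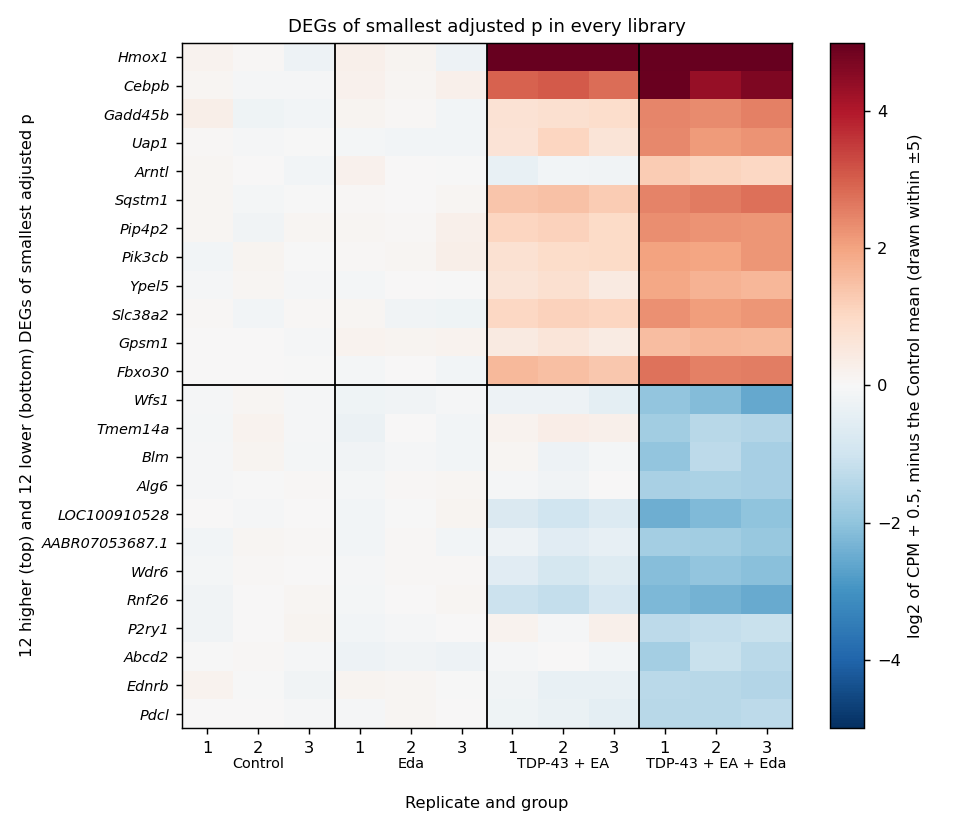
The 12 higher (top) and 12 lower (bottom) DEGs of smallest adjusted p, 1 row per gene and 1 column per library, from Control on the left to the TDP-43 + EA + Eda group on the right; colour is log2 of CPM plus 0.5 minus that of the gene's Control mean, drawn within 5 in either direction. The Eda columns stay pale, and the 3 columns of TDP-43 + EA + Eda are more intense than those of TDP-43 + EA in every row but that of Hmox1, where both groups reach the limit of the colour scale (Alg6 at 26 to 27.6 CPM against 72.7 to 83.3 CPM, for example).

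Of the 45 listed targets and regulators of Nrf2, 44 were matched and 42 tested, and 34 of them rose and 1 fell, beside 15.4% and 15.0% of all genes, with a median log2 fold change of 0.72 against -0.02 over all genes; 24 rose and 3 fell on library totals. Hmox1, the heme oxygenase that opens the heme ring and releases iron, was at means of 54.0 CPM in Control and 56.0 CPM in Eda, at 6431, 5152 and 5252 CPM in TDP-43 + EA and at 22036, 18511 and 18448 CPM with edaravone (log2 1.81, SE 0.15, adjusted p = 3.56e-06). The ferritin chains that store the iron rose with it, Fth1 from 6505, 8972 and 6390 CPM to 14388, 16444 and 14059 CPM (log2 1.04, SE 0.13, adjusted p = 5.81e-05) and Ftl1 from 4500, 4323 and 3556 CPM to 7306, 8396 and 7028 CPM (log2 0.88, SE 0.11, adjusted p = 5.4e-05). Ferritin genes have many near-identical copies in the rat genome, and how reads shared between copies were assigned is not given in the sources used here. The factor itself and its small Maf partners rose as well. Nfe2l2, which encodes Nrf2, rose by log2 0.96 (SE 0.12), Mafg by 1.07 (SE 0.09) and Mafk by 1.16 (SE 0.12). Among the enzymes of thiol recycling, Txnrd1, a thioredoxin reductase, was at 643, 571 and 494 CPM without and at 1153, 975 and 1126 CPM with edaravone (log2 0.93, SE 0.11), and Gsr, the glutathione reductase, at 150, 170 and 117 CPM and at 281, 339 and 311 CPM (log2 1.09, SE 0.13). The one member that fell was Glrx, a glutaredoxin, which was at 17, 11.7 and 12.6 CPM and at 5.36, 6.21 and 3.14 CPM (log2 -1.48, SE 0.25, adjusted p = 0.000485). Slc7a11, the cystine carrier that feeds glutathione synthesis, was chosen after its values were seen, since it did not pass the test at 23.2, 15.5 and 14.1 CPM against 36.3, 38.7 and 34.7 CPM (log2 1.06, SE 0.38, adjusted p = 0.0503). It passed in 8 of 23 alternatives, among them those without replicate 1 of TDP-43 + EA, Control or Eda, or replicate 2 of Eda.

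The wider list of heme and iron handling did not move one way, with 4 of 20 tested members up and 4 down, and 4 up and 9 down on library totals. Besides Hmox1 and the ferritins, Scara5, a receptor that takes up ferritin, fell from 18.1, 6.57 and 7.5 CPM to 1.07, 0.601 and 1.78 CPM (log2 -3.22, SE 0.42, adjusted p = 8.32e-05), with replicate 1 of TDP-43 + EA well above the other two.

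The promoter of Mafk is shown because this gene is a partner of Nrf2 that rose and whose start carries the antioxidant response element on which Nrf2 and Maf proteins bind. The sequences here and below are the 250 bases before the start site in the RefSeq table for assembly GRCr8, printed 5′ to 3′ on the strand of the gene, and capitals mark matches to the named motif on either strand. The element was searched as TGACNNNGC, which 10.1% of 33469 promoters in that table and 8 of the 36 promoters of Nrf2 list members hold. In other lists it was held by 1 of 18 promoters for glycolysis, 6 of 27 for ATF4 and CHOP targets and 9 of 27 for SNARE and vesicle genes. Its share is thus not particular to the Nrf2 list. Mafk lies on chr12:19959193-19959442, minus strand.
Mafk: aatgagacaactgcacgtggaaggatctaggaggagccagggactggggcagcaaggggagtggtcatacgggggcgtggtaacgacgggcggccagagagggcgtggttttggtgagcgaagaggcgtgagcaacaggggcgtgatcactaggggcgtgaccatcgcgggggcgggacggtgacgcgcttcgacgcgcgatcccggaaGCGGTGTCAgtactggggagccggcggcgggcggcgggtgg

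The cytosolic chaperones rose as a group, with 26 of 35 tested members up and 1 down and a median log2 fold change of 0.64, and 16 up and 4 down on library totals. Hspa8, the constitutive Hsp70, was at 2144, 1799 and 2255 CPM without and at 5816, 3762 and 4704 CPM with edaravone (log2 1.20, SE 0.13, adjusted p = 2.56e-05), though it too has near-identical copies. Hsph1, the Hsp110 that exchanges the nucleotide of Hsp70, was at means of 150 and 149 CPM in Control and Eda, at 2673, 2066 and 2680 CPM in TDP-43 + EA and at 7128, 3661 and 5128 CPM with edaravone (log2 1.10, SE 0.18, adjusted p = 0.000389). Its highest library was the deep replicate 1, and replicate 2 still lay above every library without edaravone. Stip1, the co-chaperone that hands clients from Hsp70 to Hsp90, rose by log2 1.10 (SE 0.12), Fkbp4, an immunophilin of the Hsp90 complex, by 0.88 (SE 0.08), and Hsp90ab1, a constitutive Hsp90, by 0.85 (SE 0.09). The chaperonins, which fold proteins inside a closed chamber, rose less. Of 12 tested, 10 rose and 1 fell with a median of 0.47, and 3 rose and 1 fell on library totals. Cct4 and Cct8, subunits of the cytosolic ring, rose by log2 0.72 (SE 0.08) and 0.52 (SE 0.09), and Hspd1, the mitochondrial Hsp60, was at 576, 593 and 613 CPM without and at 1089, 694 and 903 CPM with edaravone (log2 0.59, SE 0.12, adjusted p = 0.00176).

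Hsph1 and Hspa8 are printed because, of the 29 promoters found for members of the chaperone list, these 2 held a heat shock element, the site of heat shock factors, read as 3 alternating units of its repeat. Of all 33469 promoters 0.663% held one. Hsph1 lies on chr12:10427118-10427367, plus strand, and Hspa8 on chr8:50080264-50080513, plus strand.
Hsph1: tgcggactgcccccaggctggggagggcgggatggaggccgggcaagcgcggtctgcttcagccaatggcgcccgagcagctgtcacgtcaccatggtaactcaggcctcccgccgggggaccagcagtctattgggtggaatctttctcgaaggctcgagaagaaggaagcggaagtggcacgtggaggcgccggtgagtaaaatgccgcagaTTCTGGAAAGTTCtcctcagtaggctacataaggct
Hspa8: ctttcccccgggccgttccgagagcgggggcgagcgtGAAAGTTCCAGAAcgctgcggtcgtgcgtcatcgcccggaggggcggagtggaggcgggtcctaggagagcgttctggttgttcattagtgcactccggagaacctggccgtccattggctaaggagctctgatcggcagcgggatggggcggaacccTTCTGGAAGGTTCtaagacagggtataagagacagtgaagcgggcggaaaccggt
The single match in Hsph1 begins 36 bases before the start site, and those in Hspa8 begin 213 and 55 bases before it.

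Factors of the C/EBP and ATF4 branch and amino acid supply moved together with Cebpb. Of the 31 ATF4 and CHOP targets tested, 20 rose and 0 fell (14 and 0 on library totals), with a median of 0.66. Ddit3, which encodes CHOP, was at 176, 177 and 172 CPM without and at 502, 363 and 400 CPM with edaravone (log2 1.27, SE 0.12, adjusted p = 1.01e-05), and Slc3a2, the heavy chain of amino acid exchangers, at 1587, 1270 and 1285 CPM and at 2792, 3018 and 2841 CPM (log2 1.06, SE 0.11, adjusted p = 1.2e-05). Of the 6 tested genes on the C/EBP list, Cebpb, Ddit3 and Cebpg (log2 0.91, SE 0.12) rose. Cebpz, which was listed by its symbol alone, was at 69.3, 75.6 and 64.4 CPM and at 74.1, 79.1 and 78.9 CPM with overlapping groups (adjusted p = 0.266). The aminoacyl-tRNA synthetases, which charge tRNAs, were split. Of 20 tested, 9 rose and 0 fell with a median of 0.21, but 5 rose and 8 fell on library totals. Nars1 for asparagine rose by log2 0.85 (SE 0.09), from 395, 370 and 340 CPM to 741, 625 and 626 CPM, and Aars, Yars1 and Cars for alanine, tyrosine and cysteine rose by 0.65, 0.65 and 0.66. The levels of Aars, Yars1 and Cars in TDP-43 + EA were below the Control means, at 575 to 619 CPM against 751 CPM for Aars, for example. The list of chaperones and degradation factors of the endoplasmic reticulum had 8 members up and 5 down of 31, and 5 up and 13 down on library totals, while 2 or 3 were down without replicate 2 or 3 of TDP-43 + EA or replicate 1 of TDP-43 + EA + Eda. Dnajc3, Herpud1, Hsp90b1 and Ern1, the stress sensor IRE1, rose by log2 0.77, 0.63, 0.48 and 0.98.

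Immediate early genes, which cells transcribe within minutes of a stimulus, and the phosphatases that switch off MAP kinases rose as well. Of 28 immediate early and AP-1 genes tested, 15 rose and 1 fell (13 and 2 on library totals), with a median of 0.70. Fosl1, a partner of Jun in AP-1, was at means of 1.38 and 0.988 CPM in Control and Eda, at 110, 131 and 73.0 CPM in TDP-43 + EA and at 449, 252 and 314 CPM with edaravone (log2 1.69, SE 0.22, adjusted p = 8.03e-05). Myc rose by log2 1.04 (SE 0.10) and Klf6, a zinc finger factor, by 1.26 (SE 0.14). Of 16 MAP kinase phosphatases and Sprouty inhibitors tested, 10 rose and 1 fell (6 and 1 on library totals). Without replicate 1 of TDP-43 + EA + Eda 6 rose and 0 fell. Dusp1 rose from 131, 158 and 147 CPM to 413, 264 and 344 CPM (log2 1.23, SE 0.16, adjusted p = 9.77e-05), Dusp5 by log2 1.52 (SE 0.25) and Spry4 by 1.64 (SE 0.30). Dusp10 had a mean of 286 CPM in Control, lay at 159, 184 and 163 CPM in TDP-43 + EA and at 272, 277 and 304 CPM with edaravone, so its levels with edaravone were close to those of Control. Of 21 targets of p53 and Gadd45 genes, 8 rose and 0 fell (7 and 3 on library totals). Mdm2, the ligase that degrades p53, rose by log2 1.00 (SE 0.10), and Cdkn1a, the cell cycle inhibitor p21, was at 63.6, 47.7 and 50.7 CPM and at 120, 105 and 137 CPM (log2 1.16, SE 0.12, adjusted p = 1.91e-05). In the Bcl2 family, which sets the release of cytochrome c, 2 of 12 rose, namely the pro-death Bax by log2 0.42 (SE 0.08) and the pro-survival Bcl2l1 by 0.52 (SE 0.12), and 0 rose and 3 fell on library totals.

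In autophagy the rise was carried by receptors and by single factors. Of 16 receptors and Atg8 proteins 8 rose and 2 fell, and 3 rose and 3 fell on library totals. Besides Sqstm1, Gabarapl1, an Atg8 protein that coats the autophagosome, was at 307, 373 and 309 CPM without and at 561, 785 and 703 CPM with edaravone (log2 1.05, SE 0.11, adjusted p = 2.23e-05), while Fundc1, a receptor for damaged mitochondria, fell by log2 -0.83 (SE 0.14). Among 28 genes that form the autophagosome 6 rose and 3 fell (2 and 8 on library totals), and 1 fell without replicate 1 or 3 of TDP-43 + EA or replicate 1 of TDP-43 + EA + Eda. Wipi2, which reads phosphatidylinositol 3-phosphate on the growing membrane, was at means of 8.0 and 5.0 CPM in Control and Eda, at 15.6, 21.2 and 17.8 CPM in TDP-43 + EA and at 54.8, 43.7 and 53.3 CPM with edaravone (log2 1.48, SE 0.17, adjusted p = 4.25e-05). Pik3r4, a subunit of the kinase that makes this lipid, fell by log2 -0.92 (SE 0.18). Of 31 lysosomal genes 15 rose and 3 fell (8 and 7 on library totals), and 1 to 5 fell without single libraries, namely replicate 3 of TDP-43 + EA or any of TDP-43 + EA + Eda. Those that rose included Atp6v1h of the proton pump by log2 0.86 (SE 0.08) and the cholesterol exporter Npc1 by 0.77 (SE 0.09), which was below Control in TDP-43 + EA (82.3 to 85.7 CPM against a mean of 118 CPM). Of 30 subunits of the 26S proteasome 9 rose and 1 fell, but 1 rose and 7 fell on library totals. On that scale 4520 of all 13230 genes fell. The rises with TMM factors were small, the 4 of smallest adjusted p, Psmd14, Psmd4, Psmd1 and Psmd11, lying at log2 0.39 to 0.52.

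**Figure D4:**
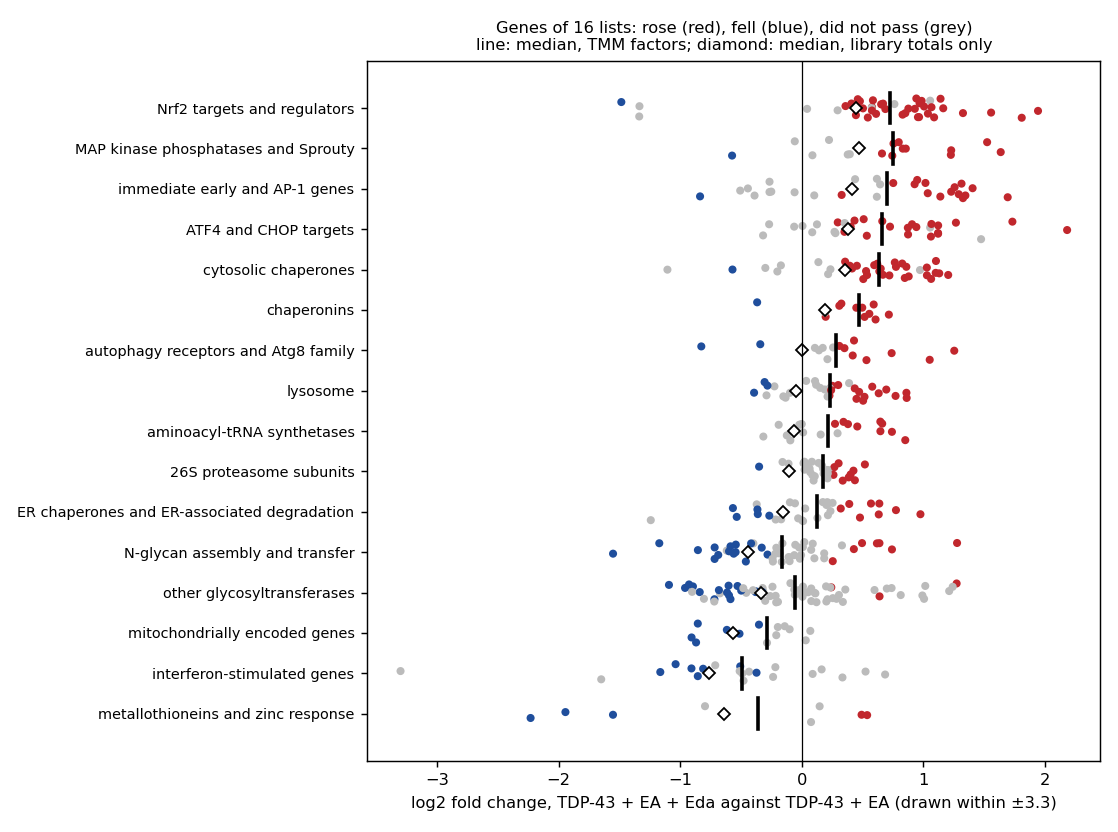
Log2 fold change of the edaravone-treated over the untreated TDP-43 + EA cells (horizontal axis, drawn within 3.3 in either direction) for the tested genes of 16 lists, 1 point per gene, red where the gene rose, blue where it fell and grey where it did not pass; black lines are list medians with TMM factors and open diamonds list medians on library totals. The Nrf2 list (median 0.72) and the chaperones (0.64) lie to the right of 0 on both scales, the proteasome changes side, and the interferon-stimulated genes (-0.49) lie to the left on both.

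Alg6 was not alone among the genes that build N-glycans. This pathway assembles a sugar tree on the lipid dolichol in the membrane of the endoplasmic reticulum and then transfers it to proteins. Of 48 genes tested 7 rose and 15 fell, with a median of -0.16, and 3 rose and 33 fell on library totals. In the order of the pathway, 5 of 8 genes for dolichol and the sugar donors fell and 1 rose, 7 of 13 genes that build the lipid-linked sugar fell and 1 rose, and of 10 genes for the transferase 1 fell and 0 rose. Dolk, which phosphorylates dolichol, had a mean of 75.5 CPM in Control, lay at 39.8, 33.3 and 36.3 CPM in TDP-43 + EA and at 16.7, 14.7 and 17.1 CPM with edaravone (log2 -1.17, SE 0.12, adjusted p = 2.03e-05). Dpagt1, the enzyme of the first step, Alg9 and Alg8, which add mannose and the glucose after that of Alg6, were chosen after their values were seen; they fell by log2 -0.60 (SE 0.09), -0.72 (SE 0.12) and -0.85 (SE 0.16). Dpm1, the catalytic subunit of dolichol-phosphate mannose synthase, rose from 66.6, 64.9 and 59.6 CPM to 104, 96.8 and 96.9 CPM (log2 0.64, SE 0.08, adjusted p = 9.76e-05), whereas its partners, chosen after their values were seen, were lower. Dpm2 fell by log2 -0.54 (SE 0.10), and the call of Dpm3 (log2 -0.72, adjusted p = 0.0175) is lost without replicate 1 or 3 of TDP-43 + EA or replicate 3 of TDP-43 + EA + Eda. In the Golgi, Mgat3, which adds the bisecting N-acetylglucosamine, rose from 17.4, 27.0 and 20.7 CPM to 56.5, 57.9 and 43.1 CPM (log2 1.28, SE 0.17, adjusted p = 9.77e-05). Of 66 other glycosyltransferases 3 rose and 16 fell (2 and 29 on library totals). Without replicate 1 of TDP-43 + EA + Eda 10 fell, and without replicate 2 or 3 of that group 5 rose. B4galt5, a galactosyltransferase of glycolipids, rose by log2 1.27 (SE 0.12), and Extl2, B3galt6 and St6galnac4 fell by log2 -1.09, -0.93 and -0.96.

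**Figure D5:**
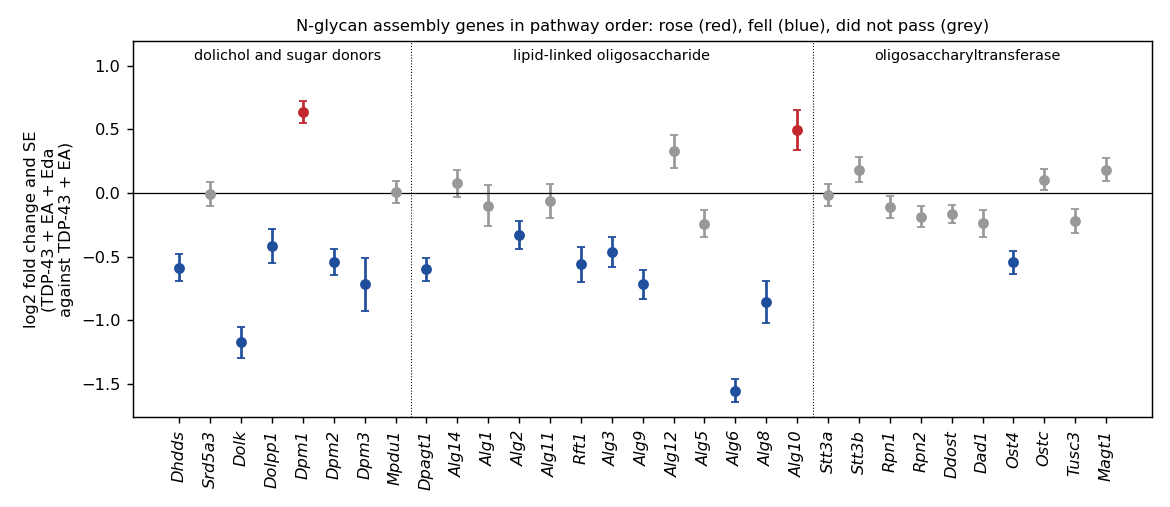
Log2 fold change with SE (vertical axis) of the edaravone-treated over the untreated TDP-43 + EA cells for 31 tested genes of N-glycan assembly in the order of the pathway, red where the gene rose, blue where it fell and grey where it did not pass. Alg6 (-1.55) and Dolk (-1.17) lie lowest, Dpm1 (0.64) stands above its partners Dpm2 and Dpm3, and of the 10 transferase subunits at the right 1, Ost4, fell.

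Lipid signalling had members on both sides, as had the genes tested as a whole, of which 15.4% rose and 15.0% fell. Of 50 phosphoinositide kinases and phosphatases 13 rose and 7 fell, and 5 rose and 15 fell on library totals; without replicate 1 or without replicate 3 of TDP-43 + EA 3 fell, and without replicate 3 of TDP-43 + EA + Eda 4 fell. Pik3cb was at 49.1, 54.0 and 55.5 CPM without and at 117, 113 and 132 CPM with edaravone (log2 1.19, SE 0.10, adjusted p = 5.67e-06). Pi4k2b, which makes phosphatidylinositol 4-phosphate, rose by log2 1.63 (SE 0.16), Pip5k1b, a kinase of the next step, by 1.19 (SE 0.14), and the regulatory subunit gene Pik3r1 by 0.63 (SE 0.09). Alpl, the tissue-nonspecific alkaline phosphatase, which the study names, was at a mean of 2.80 CPM in Control, at 12.2, 6.42 and 5.5 CPM in TDP-43 + EA and at 3.00, 3.14 and 3.08 CPM with edaravone (log2 -1.39, SE 0.30, adjusted p = 0.00289). The discussion of the study describes Alpl as lowered in the stressed cells and raised by edaravone. Its list of log2 ratios has the opposite directions, which are those seen here. Of 12 genes on the phospholipase C list, Plcg2 rose by log2 1.05 (SE 0.21) and the phospholipase C-like gene Plcl2 fell by log2 -1.10 (SE 0.29). On library totals 1 rose and 3 fell. Plpp3, a phosphatase of lipid mediators, rose by log2 1.42 (SE 0.18), and Acsl6, an acyl-CoA synthetase of polyunsaturated fatty acids, fell from 4.23, 4.11 and 3.54 CPM to 1.02, 0.868 and 0.534 CPM (log2 -2.24, SE 0.29, adjusted p = 8.03e-05). The study picked Cebpb, Sqstm1, Alpl, Plpp3, Acsl6 and 15 further genes on these same libraries, so that 13 of these 20 rose and 7 fell is not independent evidence of a direction. It also measured several of them by qPCR between these groups, Sqstm1, Alpl and Acsl6 among them, and describes the outcome as mostly correlated with its sequencing. Of 21 genes of cholesterol synthesis 3 rose and 4 fell (1 and 8 on library totals), while 5 rose without replicate 3 of TDP-43 + EA or replicate 2 of TDP-43 + EA + Eda, and 2 fell without replicate 3 of TDP-43 + EA or replicate 1 of TDP-43 + EA + Eda.

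Metallothioneins, small proteins that bind zinc and copper, went down while most stress genes went up. Mt2A was at a mean of 1.05 CPM in Control, at 7.01, 6.21 and 4.24 CPM in TDP-43 + EA and at 2.25, 1.27 and 0.890 CPM with edaravone (log2 -1.94, SE 0.40, adjusted p = 0.00206). The gene labelled Mt1 was at a mean of 13.6 CPM in Control, at 30.8, 23.7 and 21.1 CPM and at 9.38, 10.1 and 6.17 CPM (log2 -1.55, SE 0.20, adjusted p = 9.21e-05). Both groups of libraries were apart for either gene. With edaravone Mt1 lay below its Control libraries (13.0 to 14.2 CPM), and Mt2A, at a Control range of 0.743 to 1.25 CPM, overlapped with them. The Mt1 of the deposited table lies on chromosome 17 and the RefSeq Mt1 on another chromosome, so it may be a copy, and reads of metallothionein copies may be split between them. Mt1m fell too (log2 -2.23, adjusted p = 0.0295), but the call is lost when replicate 1, 2 or 3 of TDP-43 + EA or replicate 2 or 3 of TDP-43 + EA + Eda is left out, with adjusted p up to 0.911 over all alternatives. Of 8 tested genes of zinc handling, these 3 fell and 2 rose, and 0 rose and 4 fell on library totals; leaving out any 1 of the 6 libraries except replicate 2 of TDP-43 + EA + Eda left 1 that rose.

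The promoter of Mt2A is printed for its metal response elements, to which the zinc sensor Mtf1 binds. They were searched as TGCACNC or TGCGCNC, of which 20.6% of all promoters held at least 1, and Mt2A held 4. It lies on chr19:10838709-10838958, minus strand.
Mt2A: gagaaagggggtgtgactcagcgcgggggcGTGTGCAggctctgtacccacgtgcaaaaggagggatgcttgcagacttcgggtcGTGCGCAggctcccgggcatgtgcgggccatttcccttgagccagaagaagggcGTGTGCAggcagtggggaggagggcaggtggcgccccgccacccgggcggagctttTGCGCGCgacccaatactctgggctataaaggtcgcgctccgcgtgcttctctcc

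Genes induced by interferon were lower with edaravone. Of 21 tested, 0 rose and 7 fell (0 and 14 on library totals), with a median of -0.49, and 4 fell without replicate 1 of TDP-43 + EA, without its replicate 3 or without replicate 2 of TDP-43 + EA + Eda. Psmb9, an inducible catalytic subunit of the immunoproteasome, was at 8.05, 5.44 and 7.64 CPM and at 4.26, 2.74 and 2.25 CPM (log2 -1.16, SE 0.26), and Ddx58, the RNA sensor RIG-I, fell by log2 -0.91 (SE 0.20). Of 19 NF-kB targets and cytokines, by contrast, 6 rose and 0 fell, but 2 rose and 2 fell on library totals, 3 rose without replicate 1 of either group and 2 without replicate 3 of TDP-43 + EA. Vcam1, an adhesion molecule, rose from 6.52, 9.50 and 3.73 CPM to 23.3, 23.7 and 20.4 CPM (log2 1.77, SE 0.30, adjusted p = 0.000576).

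In energy metabolism 6 of the 13 genes of the mitochondrial chromosome fell and 0 rose (11 and 0 on library totals), and 7 did not pass. Their median was -0.29, but -0.10 without replicate 1 and -0.44 without replicate 2 of TDP-43 + EA, and -0.18 without replicate 2 of TDP-43 + EA + Eda. Mt-nd1, a subunit of complex I, was at a mean of 837 CPM in Control, at 621, 431 and 495 CPM in TDP-43 + EA and at 266, 290 and 290 CPM with edaravone (log2 -0.87, SE 0.11, adjusted p = 7.22e-05), and Mt-nd3 and Mt-nd4l fell by log2 -0.91 and -0.86. The share of counts on mitochondrial genes was 1.63 to 2.26% without and 1.27 to 1.58% with edaravone, and its part in the other results was not tested. In glycolysis 6 of 19 rose and 3 fell (5 and 6 on library totals). Hk2, the inducible hexokinase, rose from 21.2, 29.9 and 20.4 CPM to 63.4, 43.8 and 64.1 CPM (log2 1.26, SE 0.20, adjusted p = 0.000312), while the phosphofructokinase gene Pfkm fell from 22.6, 12.9 and 15.9 CPM to 5.44, 5.54 and 3.44 CPM (log2 -1.83, SE 0.26, adjusted p = 0.000165). Ldhb, a lactate dehydrogenase chain, fell by log2 -0.76 (SE 0.11).

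Markers of cell type were read because a bulk library cannot tell fewer cells of a type from less RNA per cell. The labels call the differentiated cells motor neuron-like. Of 8 motor neuron markers 2 passed the filter, their sum over the whole list was 1.13 to 2.75 CPM in the 6 libraries, and Slc18a3, Slc5a7 and Mnx1, which mark cholinergic and motor neurons, were at 0 in all of them. The 16 oligodendrocyte lineage markers summed to 25600 to 32500 CPM in TDP-43 + EA and 24900 to 33300 CPM with edaravone, with overlapping ranges. Of the 15 tested, Opalin, a myelin membrane protein gene, rose (log2 1.02, SE 0.26, adjusted p = 0.0083), with overlapping libraries, and its call is lost without replicate 1 of TDP-43 + EA + Eda, while 1 of the list rose and 4 fell on library totals. The 21 neuronal markers summed to 1170 to 1340 CPM and 1160 to 1340 CPM, and Stmn2, Elavl4 and Snhg11 were at 0 in all 6 libraries. Of 14 tested, Nefl, the light neurofilament chain, fell from 67.6, 36.2 and 103 CPM to 9.93, 10.4 and 15.3 CPM (log2 -2.54, SE 0.34, adjusted p = 0.000107). Elavl3 passed upward (log2 0.48, SE 0.17, adjusted p = 0.0406), a call lost without replicate 1 or 2 of TDP-43 + EA, replicate 1 or 3 of TDP-43 + EA + Eda, replicate 3 of Control or any replicate of Eda, and 0 neuronal markers rose and 2 fell on library totals. The 11 astrocyte markers summed to 1260 to 1360 CPM and to 1000 to 1240 CPM, which do not overlap, with Aqp4 and Aldh1l1 at 0 in all 6 libraries. Of 7 tested, Gfap, the astrocyte filament, fell from 439, 318 and 279 CPM to 86.3, 172 and 138 CPM (log2 -1.39, SE 0.24, adjusted p = 0.000723), Fgfr3 and Aldoc fell by log2 -1.03 and -0.64, and Glul, the glutamine synthetase, rose by 0.59 (SE 0.12). Of 10 neural stem cell markers 2 rose and 2 fell (1 and 4 on library totals). The 12 microglia and macrophage markers summed to 4.24 to 7.08 CPM and 7.71 to 13.3 CPM, with Aif1, Cx3cr1, Ptprc, C1qa and Tyrobp at 0 in all 6 libraries, and the 11 mesenchymal and vascular markers to 1.90 to 2.47 CPM and 2.27 to 4.86 CPM. Cd68, a lysosomal protein of macrophages, was at 4.00, 6.06 and 3.22 CPM without and at 10.9, 8.95 and 6.23 CPM with edaravone (adjusted p = 0.0566), and 1 member of this list passed without replicate 2 of TDP-43 + EA or replicate 3 of TDP-43 + EA + Eda. Col1a1, a collagen chain, had an adjusted p of 0.0567, and 1 mesenchymal member passed without replicate 2 of TDP-43 + EA + Eda. The part of these cell types in the other results was not tested.

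Smaller sets closed the lists, namely synaptic vesicle and SNARE genes, cell cycle genes and the nuclear pore. Their counts are to be read beside all genes, of which 15.4% rose and 15.0% fell. The SNARE and cell cycle counts lay near these shares. Of 33 SNARE and vesicle genes 6 rose and 5 fell (1 and 11 on library totals), while 2 or 3 rose without replicate 2 of TDP-43 + EA or replicate 1 or 3 of TDP-43 + EA + Eda, and 2 or 3 fell without replicate 1 or 3 of TDP-43 + EA or replicate 3 of TDP-43 + EA + Eda. Vamp1, a vesicle SNARE, rose from 55.7, 145 and 84.3 CPM to 231, 216 and 284 CPM (log2 1.36, SE 0.23, adjusted p = 0.000621). Of 28 cell cycle genes 4 rose and 4 fell (2 and 9 on library totals), while 1 or 2 fell without replicate 1 of either group or replicate 3 of TDP-43 + EA + Eda. Ccnd1, which encodes cyclin D1, rose from 149, 222 and 173 CPM to 363, 385 and 411 CPM (log2 1.09, SE 0.13, adjusted p = 4.25e-05). Of 27 nuclear pore genes 3 rose and 1 fell (1 and 13 on library totals), and 2 or 3 fell without replicate 1 of TDP-43 + EA or replicate 2 or 3 of TDP-43 + EA + Eda, with Nup153 at 196, 201 and 185 CPM without and 332, 334 and 351 CPM with edaravone (log2 0.81, SE 0.09), and Nup43 at 18.8, 18.3 and 17.7 CPM and at 11.7, 7.81 and 8.01 CPM (log2 -0.98, SE 0.21). Some genes were not counted at all in TDP-43 + EA + Eda. Sbk1, a kinase gene, had 13 to 145 counts in the TDP-43 + EA libraries (6.52, 1.23 and 0.606 CPM) and 0 in each TDP-43 + EA + Eda library, which at a floor of 3 counts per library is at least 18.1-fold lower, or at least 5.98-fold lower without replicate 1 of TDP-43 + EA. Rnf113a1, which encodes a RING finger protein, had 67 to 152 counts (5.76, 7.80 and 3.12 CPM) and 0 in each TDP-43 + EA + Eda library, at least 36.2-fold lower. Its call is lost without replicate 1 of TDP-43 + EA + Eda, without a filter on low counts and with shrunken DESeq2 fold changes. It varied in the other groups, at 4.04, 0.76 and 0.0 TPM in Control and 9.20, 1.94 and 0.0 TPM in Eda. Sbk1 was at 0.25, 0.13 and 0.0 TPM in Control and 0.42, 0.20 and 0.81 TPM in Eda. Of the genes that changed, 17 were at 0 in all TDP-43 + EA + Eda libraries and above the floor on average in TDP-43 + EA, and 4 the other way round.

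Whether the difference made by edaravone in TDP-43 + EA cells was other than that in cells with neither was tested as an interaction in the same fit. By this test 629 genes passed at the thresholds of a DEG (4.75%), with 491 to 816 when 1 library was left out. The Hmox1 difference with edaravone exceeded that in cells without virus and ethacrynic acid by 1.76 on the log2 scale (adjusted p = 0.00028), that of Gadd45b by 1.61 (adjusted p = 0.00014) and that of Hspa8 by 1.20 (adjusted p = 0.0011), while those of Wdr6 and Mt1 were lower by -1.41 and -1.55 (adjusted p = 8.3e-05 and 0.0029). These genes were named with their difference between TDP-43 + EA + Eda and TDP-43 + EA known, and that difference is part of the interaction. For Spry4 and Opalin the interaction did not pass (adjusted p = 0.19 and 0.17), which does not show that edaravone acts alike in the 2 settings.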

How the data were processed

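The authors sequenced cDNA made from total RNA by template switching, in pairs of 150-base reads, and processed them with bcl2fastq 2.20, DRAGEN, R 3.6.0 and DESeq2 1.26.0 on Rnor_6.0, per the methods and submitters' processing notes. The authors' expected counts per gene were deposited without normalization, and were rounded here to whole numbers. The deposited TPM values, scaled by the authors to 1e6 per library, served one alternative. No source used here gives the strand setting or the assignment of shared reads, so antisense, overlapping and near-identical genes are uncertain. Genes were filtered by filterByExpr, normalized with TMM factors and tested with edgeR 4.0.16 (robust quasi-likelihood, group means, all 12 libraries) in R 4.3.3. CPM are counts over TMM-scaled totals times 1e6, SE is the log2 fold change over the root of F. The fit was run on counts simulated from its own means, spread and library sizes, which does not test the scaling or a replicate effect. Alternatives used DESeq2 1.42.0, limma 3.58.1, other scalings, other filters and left-out libraries. No replicate pair was near-identical (chi-square per gene of 18.94 or more).

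Members and the 37 gene lists were chosen with earlier results of these data known. Named were Tardbp, Cebpb, Sqstm1, Alg6, the genes the study names, per direction the 12 DEGs of smallest adjusted p and the 8 of largest change without overlap (mean of at least 50 counts), and up to 4 members per list by adjusted p. Of 906 symbols, 866 matched by symbol, 24 by Entrez number and 16 not. RefSeq promoters (GRCr8) matched 75.9% of tested genes, so motif shares are given only for lists of which at least 80% had one. Some members of these lists are not reported here.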

Additional observations from a re-analysis of the deposited data

Results flagged for a closer look

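The following results concern a difference between settings, namely that the change with edaravone in cells with TDP-43 virus and ethacrynic acid was other than the change in cells with neither, tested as an interaction with edgeR's quasi-likelihood test over all genes. For Cebpb the interaction was 1.545 on the log2 scale (SE 0.176, adjusted p = 0.0002556), beside 0.19 for Eda against Control. For Sqstm1 it was 1.201 (SE 0.127, adjusted p = 0.0001785), beside 0.05. For Alg6 it was -1.581 (SE 0.123, adjusted p = 2.949e-05), beside 0.03. In each of these genes the 3 libraries of TDP-43 + EA + Eda lay on one side of the 3 of TDP-43 + EA. They were taken as genes known to differ between these groups, a difference that is part of the interaction. For Eda against Control 0 of 13230 genes passed. That these genes passed as interactions is therefore not independent of how they were chosen. In all, 629 genes had such an interaction at the thresholds of a DEG. The TMM factors and the Tardbp count also set TDP-43 + EA + Eda apart from the other groups, and their part in these interactions was not tested. The spread of single libraries could not be judged for outliers in groups of 3.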

How the results depend on the processing

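The 774 DEGs (251 higher, 523 lower) became 837 with DESeq2, 663 with only the 6 libraries and 748 without a filter. With shrunken DESeq2 fold changes there were 682 (266 higher, 416 lower). The study, which used shrunken DESeq2 fold changes at the same thresholds, reported fewer than any of these. Without a minimum on the fold there were 4027 (2038 and 1989), and against a null of a log2 fold change of 1 there were 26 (8 and 18). The balance of directions moved with the scaling, with 80 higher and 1077 lower on library totals and 66 higher on log2(TPM + 1), where the interaction count of 629 became 1105 on library totals. Leaving out each of the 12 libraries gave 607 to 942 DEGs, 172 to 314 higher and 425 to 628 lower, and 491 to 816 interactions; leaving out Control or Eda libraries was chosen after seeing the data. Same-numbered libraries of the compared groups deviated together with r of 0.08 to 0.10. Libraries of unlike number had r of -0.07 to -0.02, so each correlated best with its own number. Neither the labels nor the study say whether a number marks one of the study's experiments. The main fit did not use the number. With the replicate number as a block there were 812 DEGs (258 and 554) and 690 interactions. Of 167 named genes that passed, 135 kept direction and call in every alternative other than the null of 1, 32 lost the call in at least 1 and 0 reversed. A depth of 17.42 to 43.91 (in units of 1e6 counts) limits genes of a few CPM, where 42.4% of the lower DEGs are under 5 CPM in TDP-43 + EA.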
